A study of Homo sapiens with 6 samples.

Results

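Antigen presentation by MHC class I was described here through 9 genes measured in cultured human podocytes: the heavy chains HLA-B, HLA-C and HLA-E, the light chain B2M, the peptide transporter TAP1 and TAP2, the loading factor TAPBP, and the inducible proteasome subunits PSMB8 and PSMB9. The genes were taken by name from the 20745 genes of the deposited table, where each of the 9 has 1 row. RNA came from the conditionally immortalized podocyte line AB 8/13, differentiated at the restrictive temperature, in 3 vehicle cultures and 3 cultures given 1 µM levamisole for 24 h, an anthelminthic drug that is also used in nephrotic syndrome. The study's methods give 3 different passages of this single line for the cultures of each group, without saying whether the groups shared passages. The labels describe both groups as serum free for 24 h, whereas the methods describe complete medium for the vehicle, and the labels also carry the word control in the titles of the levamisole cultures. The table gives 1 pooled level per gene, the authors' base mean, which is the mean of the normalized counts over the libraries of their fit. It holds no value per culture, so neither a spread between cultures nor a vehicle and a levamisole level can be given, and the effect of levamisole on these genes is not analysed here. In these bulk cultures, fewer cells that express a gene and less of its RNA per cell cannot be told apart.

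MHC class I molecules show peptides from inside a cell to cytotoxic T cells and natural killer cells. Proteasomes cut proteins into peptides, the TAP1 and TAP2 proteins carry the peptides into the endoplasmic reticulum, and tapasin, encoded by TAPBP, helps to load them onto a heavy chain that is bound to the light chain β2-microglobulin. Interferon raises most of these genes in many cell types, and it also exchanges subunits of the proteasome for inducible ones, which gives the immunoproteasome. Podocytes are the epithelial cells that cover the glomerular capillaries of the kidney and hold the filtration slits open.

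The line was first set against marker genes. Of 16 podocyte markers 11 had a base mean of at least 5, the minimum used for calling a gene detected, among them ACTN4, which cross-links actin, with 14321 and the transcription factor WT1 with 6.21. NPHS1, which encodes the slit diaphragm protein nephrin, is not analysed here. Of 12 leukocyte and 8 endothelial markers, the 6 and 4 with a row stayed under 5. The leukocyte markers lay between 0.832, for the common leukocyte antigen PTPRC, and 3.40, and the endothelial ones between 0.306 and 4.75. The levels of CD68 and CORO1A in the leukocyte list are uncertain, since a same-strand neighbour lies over 82.6% of the last 500 exonic bases of CD68, and CORO1A shares 20.4% of its stretches of 60 bases there with another gene. The other markers of these lists are not analysed here. Over the whole table the median base mean was 21.8, 7409 genes (35.7%) were under 5, and the 22 mitochondrial genes took 34.8% of the sum.

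The 9 genes spanned a 150.4-fold range of base means, from 37.7 for PSMB9 to 5673 for B2M, and all 9 were over the minimum of 5. Their median was 349. They fell into a high level of chains that are displayed on the cell surface, a middle level of loading genes together with HLA-E, and a low level of proteasome subunits. In order of base mean came B2M, HLA-C, HLA-B, TAPBP, TAP1, TAP2, HLA-E, PSMB8 and PSMB9. The widest gap between neighbours was the 7.37-fold step from HLA-B to TAPBP, followed by the 3.14-fold step from HLA-E to PSMB8. The narrowest was the 1.06-fold step from TAP2 to HLA-E. With 1 pooled value per gene, no neighbours can be said to differ beyond an error. A base mean counts reads, and since these libraries were primed at the poly(A) tail, reads fall mostly near the end of a transcript and were not divided by length for the main order. Divided by the kilobases of all annotated exons of a gene, the first 3 and the last 2 genes kept their places, while HLA-E rose from place 7 to place 4, TAP1 stayed at place 5, TAPBP went to place 6 and TAP2 to place 7.

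**Figure D1:**
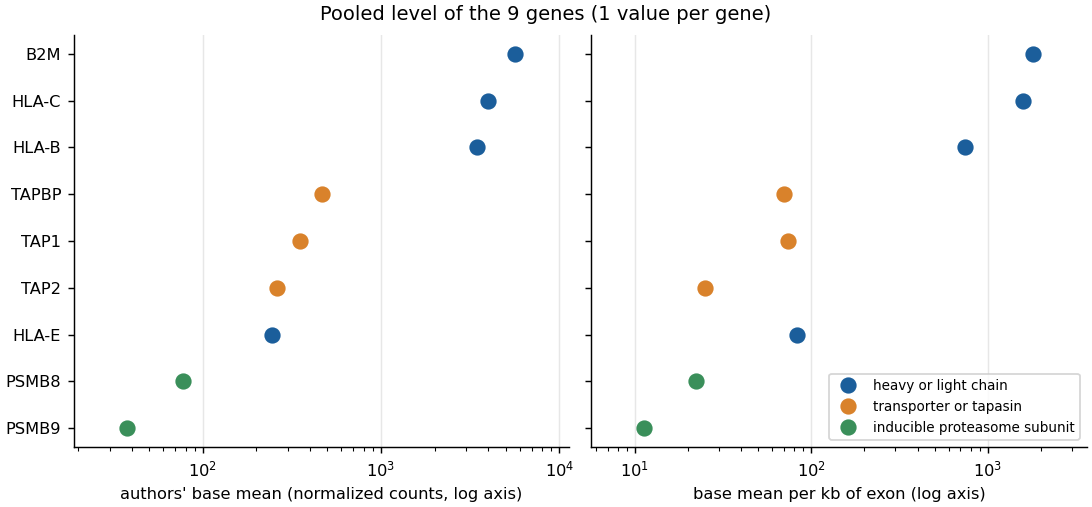
The authors' base mean of the 9 genes on log axes, as deposited (left) and per kilobase of annotated exon (right), with 1 point per gene, coloured by role, and no error bar because the table holds 1 pooled value per gene. B2M, HLA-C and HLA-B lie apart at the top on both scales, and HLA-E moves from below TAP2 on the left to above the transporter genes on the right.

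Set among all genes by base mean, B2M was at place 76 of the table, with 99.6% of genes below it, and 61 of the 75 genes above it were nuclear. HLA-C was at place 116 and HLA-B at place 141. TAPBP stood above 91.5% of the genes, TAP1 above 88.6%, TAP2 above 84.9% and HLA-E above 84.0%. PSMB8 stood above 66.8% and PSMB9 above 56.5%, so the lowest of the 9 genes was over the median gene of the whole table. This place depends on the genes compared. PSMB9 stood above 32.3% of the genes that reached 5, 46.9% of those that reached 1 and 39.6% of protein-coding genes, but above 61.6% per kilobase. For PSMB8 these shares were 48.3%, 59.5%, 53.4% and 73.0%. The 9 genes together held 0.229% of all summed base means and 0.351% of the nuclear part. All but B2M, which lies on chromosome 15, are in the MHC on chromosome 6. Of the 147 table genes that lie between the start of HLA-F and the end of TAPBP (chr6:29722775-33314284 on GRCh38), HLA-C and HLA-B were at places 2 and 3, TAPBP at 17, TAP1, TAP2 and HLA-E at 21, 22 and 23, PSMB8 at 47 and PSMB9 at 58.

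**Figure D2:**
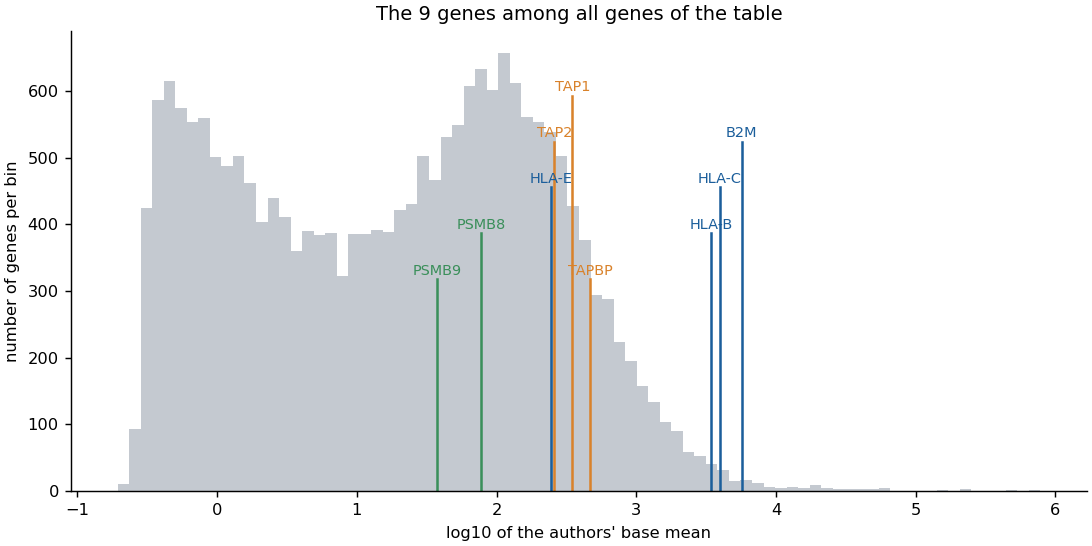
Number of genes of the table per bin of log10 base mean (grey), with a coloured line for each of the 9 genes, whose heights only separate the names. HLA-B, HLA-C and B2M lie in the right tail, TAP1, TAP2, TAPBP and HLA-E on the falling side of the right-hand mode, and PSMB8 and PSMB9 on its rising side.

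The light chain B2M (ENSG00000166710, chr15:44711358-44718851, plus strand) had the highest base mean, 5673, or 1818 per kilobase of exon. β2-microglobulin is the partner of every classical and non-classical class I heavy chain. HLA-C (ENSG00000204525, chr6:31268749-31272130, minus strand) and HLA-B (ENSG00000234745, chr6:31353872-31367067, minus strand) encode classical heavy chains, which present peptides to T cells and are also ligands of natural killer receptors. HLA-C had a base mean of 3975 and HLA-B one of 3450. The ratio of HLA-C to HLA-B was thus 1.15 in base mean, and 2.12 per kilobase, since the annotation gives HLA-B 4.62 kb of exon and HLA-C 2.51 kb. The 2.12 rests on this union of all annotated exons, as the canonical transcripts are of nearly equal length, 1536 bases for HLA-B and 1542 for HLA-C. HLA-E (ENSG00000204592, chr6:30489509-30494194, plus strand), a non-classical chain that presents leader peptides of other class I chains to natural killer cells, had a base mean of 244. HLA-B exceeded it by 14.2-fold in base mean and by 8.94-fold per kilobase. The base means of HLA-B, HLA-C and HLA-E summed to 7669, which is 1.35 times that of B2M. This sum is over these 3 genes and is not the total of all class I heavy chains. The remaining non-classical chains were lower than HLA-E: HLA-F had a base mean of 44.4 and HLA-G, known from the placenta, one of 12.7, that is 5.50-fold and 19.2-fold under HLA-E, or 8.11-fold and 11.6-fold per kilobase.

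HLA genes resemble each other, and the study's methods drop or leave uncounted reads that map equally well to several places, so their 3′ ends were compared with all annotated transcripts. In the last 500 exonic bases of HLA-B, 3 of the 441 stretches of 60 bases, the length of the sequenced read, occur in another gene, and all 3 are in HLA-C. The same 3 were found for HLA-C. HLA-E had 0 of 441 in another gene, as had B2M, TAP1, TAP2, TAPBP, PSMB8 and PSMB9. This check used the reference sequence only. HLA genes differ between people, and reads of an allele far from the reference may map less well, which was not tested.

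Reference promoters are shown for the 3 most abundant genes. Of these, B2M alone matches GAAANNGAA, the letters searched for as the interferon response core, and other spellings of that element were not searched. They are the 250 bases before the RefSeq start site on GRCh38.p14, read in the direction of the gene: chr6:31357180-31357429 (minus strand) for HLA-B, chr6:31272093-31272342 (minus strand) for HLA-C and chr15:44711267-44711516 (plus strand) for B2M. Capitals mark matches to the NF-kB consensus site, to TGACG, a partial CRE, the element bound by CREB-type factors, and to GAAANNGAA, the core of the interferon response element, each on either strand.
HLA-B: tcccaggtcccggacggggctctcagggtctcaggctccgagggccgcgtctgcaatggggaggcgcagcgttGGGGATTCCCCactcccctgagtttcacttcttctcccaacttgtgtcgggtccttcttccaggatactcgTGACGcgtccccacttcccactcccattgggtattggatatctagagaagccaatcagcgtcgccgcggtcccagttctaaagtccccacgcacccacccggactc
HLA-C: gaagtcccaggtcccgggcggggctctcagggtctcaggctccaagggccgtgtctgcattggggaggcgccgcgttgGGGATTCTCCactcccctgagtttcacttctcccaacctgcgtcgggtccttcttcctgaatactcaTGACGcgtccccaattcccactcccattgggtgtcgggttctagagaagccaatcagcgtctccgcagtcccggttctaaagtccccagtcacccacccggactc
B2M: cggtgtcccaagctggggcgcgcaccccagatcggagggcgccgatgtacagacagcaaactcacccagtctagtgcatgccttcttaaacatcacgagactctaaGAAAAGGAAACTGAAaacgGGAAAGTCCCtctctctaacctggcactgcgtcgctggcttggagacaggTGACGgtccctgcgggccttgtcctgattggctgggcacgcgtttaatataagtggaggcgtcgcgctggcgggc
The HLA-B window held an NF-kB match from -177, with a second in the next register from -176, and a TGACG at -106, counted from the start site. The HLA-C window had the NF-kB match at -172 and the TGACG at -105. B2M had a match to the interferon response core at -144 and an overlapping one at -138, an NF-kB match at -125 on the opposite strand and a TGACG at -75. CCAAT boxes, the sites of NF-Y, were found on the transcribed strand at -56 in both HLA windows and at -95 in HLA-C. On the opposite strand they lay at -81 and -74 in HLA-B, at -192 and -80 in HLA-C and at -49 in B2M. No GAAANNGAA was found in the HLA-B and HLA-C windows. These are letter matches in a reference, not shown to be bound in these cells, and 5.91% of all 35116 promoter windows of 300 bases hold an NF-kB match, 24.6% TGACG, 34.6% a CCAAT box and 8.11% the interferon response core.

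TAP1 and TAP2 encode the partner chains of the peptide transporter. TAP1 (ENSG00000168394, chr6:32845209-32853816, minus strand) had a base mean of 349 and TAP2 (ENSG00000204267, chr6:32821833-32838739, minus strand) one of 260, a ratio of 1.34 in base mean and of 2.94 per kilobase. The annotation gives TAP2 10.4 kb of exon and TAP1 4.74 kb, which sets the distance between the ratios. TAPBP (ENSG00000231925, chr6:33299694-33314284, minus strand) had a base mean of 468, 1.34 times that of TAP1, but 0.956 times that of TAP1 per kilobase, so the order of this pair depends on the scale. The last 500 exonic bases of TAP1 are covered in full on the opposite strand by PSMB8-AS1, and those of TAPBP by another antisense gene. The study's methods give default counting parameters, which use strand in this counter. No member had its end covered by another gene on its own strand.

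The inducible subunit genes were the lowest of the set. PSMB8 (ENSG00000204264, chr6:32840717-32844679, minus strand) encodes the chymotrypsin-like subunit β5i, which takes the place of PSMB5, and had a base mean of 77.5. PSMB9 (ENSG00000240065, chr6:32844136-32859851, plus strand) encodes β1i, which takes the place of PSMB6, and had one of 37.7. PSMB8 was thus 2.06-fold over PSMB9 in base mean and 1.97-fold per kilobase. The constitutive PSMB5 had 353, so PSMB8 stood at 21.98% of it in base mean and at 9.78% per kilobase. The constitutive PSMB6 had 615, and PSMB9 stood at 6.14% of it, or 2.66% per kilobase. PSMB10, the inducible counterpart of PSMB7, had a base mean of 2.14 against 185, or 1.16% in base mean and 1.27% per kilobase. The last 500 exonic bases of PSMB10 are covered in full by a gene on the same strand (ENSG00000261884, base mean 0.478), where the study's counting leaves reads unassigned, so the level of PSMB10 is uncertain.

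Subunits of 1 complex did not have 1 level. The 14 constitutive genes PSMA1 to PSMA7 and PSMB1 to PSMB7, whose proteins enter the core of the proteasome in equal number, ranged from 21.9 for PSMA6 to 1662 for PSMA3, a 75.9-fold span in base mean and a 159-fold span per kilobase. The lowest 3 of them, PSMA6, PSMA2 (42.1) and PSMA1 (141), are also the 3 in which a same-strand neighbour overlaps the last 500 exonic bases, over 96.2%, 100% and 43.8% of them, and PSMA6 shares 23.1% of its stretches of 60 bases with other genes. These 3 neighbours have no row, and the cover is that of GENCODE 44 while the counts used Ensembl 95. Whether the neighbours were in the counting annotation is not known, and the part of this cover in the levels of PSMA6, PSMA2 and PSMA1 was not tested. The other 11 ranged from 185 to 1662, an 8.99-fold span, and both PSMB8 and PSMB9 lay under all 11. The median of the 9 antigen presentation genes was 0.673 times the median of the 14 constitutive subunits (518). B2M, HLA-C and HLA-B exceeded that median by 10.9-fold, 7.67-fold and 6.66-fold, while PSMB8 and PSMB9 were at 0.150 and 0.0728 of it.

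**Figure D3:**
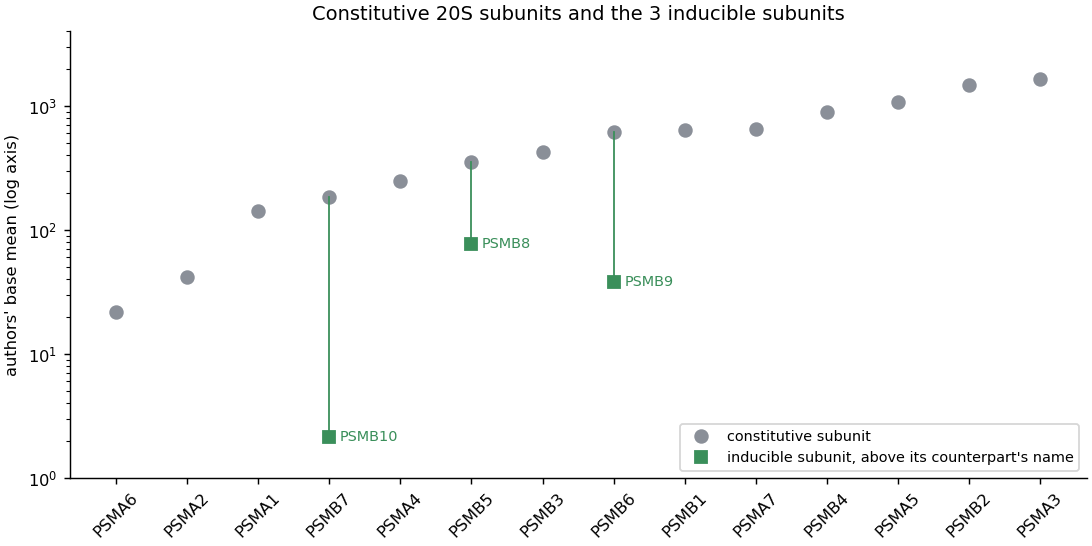
The authors' base mean (log axis) of the 14 constitutive core subunits in rising order (grey circles), with each inducible subunit (green square) joined by a line to the counterpart that it replaces. PSMB8 lies at 21.98%, PSMB9 at 6.14% and PSMB10 at 1.16% of the counterpart above it, and PSMA6 and PSMA2 are the lowest constitutive subunits.

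TAP1 and PSMB9 point away from each other, and their RefSeq start sites, at 32853704 and 32854192 of chromosome 6, lie 488 bases apart. Their levels differed by 9.25-fold in base mean and by 6.51-fold per kilobase. The 250 bases before each start are printed because the starts are neighbours while the levels lie far apart: chr6:32853705-32853954 (minus strand) for TAP1 and chr6:32853942-32854191 (plus strand) for PSMB9, with capitals as above.
TAP1: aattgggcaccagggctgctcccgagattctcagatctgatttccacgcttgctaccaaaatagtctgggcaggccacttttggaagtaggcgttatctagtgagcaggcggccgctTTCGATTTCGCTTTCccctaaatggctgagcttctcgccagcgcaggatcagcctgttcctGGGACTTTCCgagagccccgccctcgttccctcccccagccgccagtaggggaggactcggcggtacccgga
PSMB9: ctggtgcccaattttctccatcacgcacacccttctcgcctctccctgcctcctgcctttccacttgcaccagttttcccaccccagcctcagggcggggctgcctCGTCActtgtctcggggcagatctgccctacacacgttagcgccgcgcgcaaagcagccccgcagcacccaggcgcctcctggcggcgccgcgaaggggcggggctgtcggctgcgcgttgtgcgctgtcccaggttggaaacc
The TAP1 window had the interferon response core on the opposite strand at -133 and, overlapping it, at -127, NF-kB matches at -72 and, past the start site and on the opposite strand, at +23, and a GC box, GGGCGG, on the opposite strand at -55. The PSMB9 window held TGACG at -144 on the opposite strand and GC boxes at -158 and -48, and no match to the interferon response core or the NF-kB site. The TAP1 core matches and its NF-kB match at -72 lie between both start sites, so they are upstream of PSMB9 too. They are farther from PSMB9 than the 250 bases searched, so their absence from its window is set by the window's length. TAP1 has a second RefSeq window with a GAS match, TTCNNNGAA, the letters of the interferon-γ activated site, at -189.

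RefSeq windows were at hand for 8 of the 9 genes, 10 windows in all, with 2 each for TAP1 and PSMB8. HLA-E is named only. The interferon response core, searched as GAAANNGAA only, was found in 5 of the 10 windows, those of B2M, TAP1, TAP2, TAPBP and PSMB8, against 8.11% of all windows. The NF-kB match was found in 5, of HLA-B, HLA-C, B2M, TAP1 and TAPBP, against 5.91%. TGACG was in 6 windows, against 24.6% of all, CCAAT boxes in 5, against 34.6%, GC boxes in 8, against 44.95%, and GAS in 2, against 7.66%. The first TAP1 window and the PSMB9 window overlap, and their CCAAT matches are the same bases, counted for each window. The full CRE, TGACGTCA, was in 0 of the 10 and in 1.85% of all windows. In TAPBP the core lies at -20 and again at -14, and its match letters are GAAAGTGAA at both places. TAP2 carries GAAAGCGAA at -58, the same letters as the PSMB10 window at -21. In the second PSMB8 window the match crosses the start site. B2M, TAP1 and TAPBP hold the core together with an NF-kB match, while the base means of these 3 genes run from 349 to 5673.

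**Figure D4:**
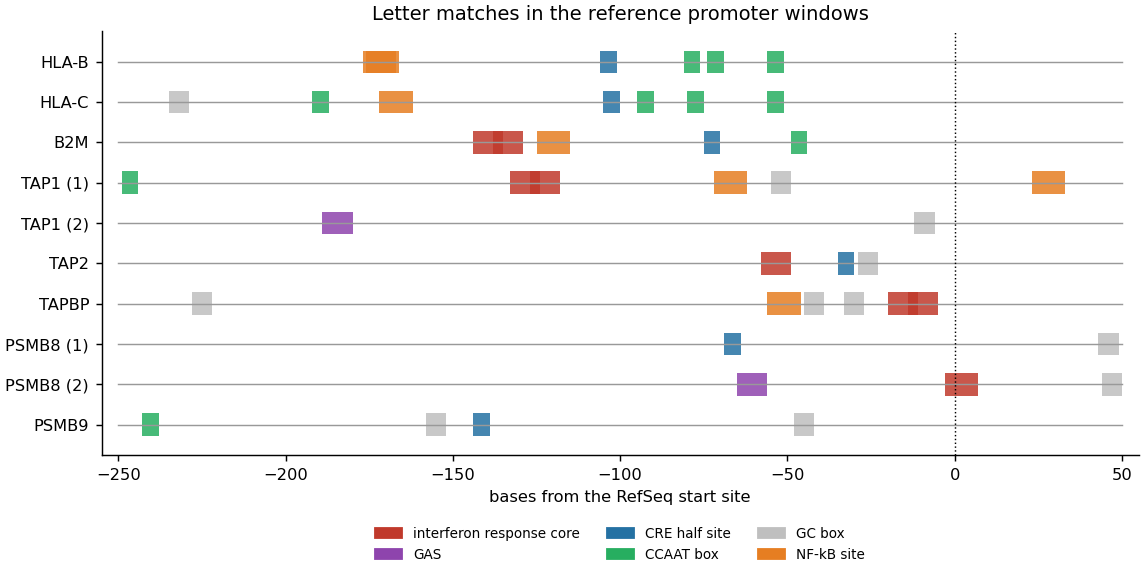
Positions of letter matches (coloured boxes) in the 10 RefSeq promoter windows of 8 of the genes, in bases from the start site (dotted line), where (1) and (2) are alternative windows of a gene. Interferon response cores (GAAANNGAA only) lie in B2M, TAP1, TAP2, TAPBP and PSMB8, and NF-kB matches in HLA-B, HLA-C, B2M, TAP1 and TAPBP. The PSMB9 window has neither, and it ends short of the TAP1 matches to both, which lie farther upstream of PSMB9.

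Other genes of the pathway, from lists of 71 genes with no member among them, were mostly detected: 66 had a row and 60 a base mean of at least 5. All 7 genes of peptide loading and trimming were detected. The chaperones of heavy chain folding had base means of 1690 for CANX and 494 for CALR, the disulfide isomerase PDIA3 had 162, and TAPBPL, the tapasin homologue that edits peptides outside the loading complex, had 39.8, which is 11.8-fold under TAPBP in base mean and 5.64-fold per kilobase. The aminopeptidase ERAP1, which trims peptides, had 691 and its relative ERAP2 had 41.1, 16.8-fold lower in base mean and 14.7-fold lower per kilobase. Among the proteasome regulators, PSME1 and PSME2, which form the interferon-inducible cap, had 310 and 88.4, while PSME3 of the nuclear cap had 3220 and POMP, an assembly factor, had 769. For PSME2, 19.0% of the stretches of 60 bases at the end of the transcript occur in other genes, so its count is uncertain.

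**Figure D5:**
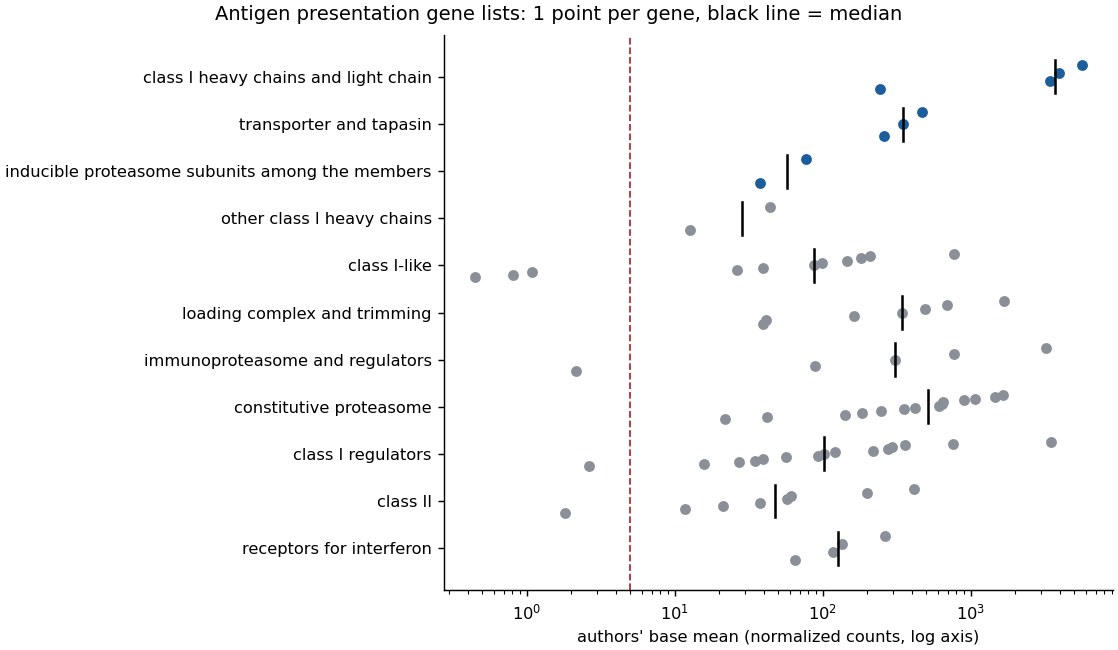
The authors' base mean (log axis) for each gene of the antigen presentation lists, 1 point per gene spread vertically for sight, with the 9 genes in blue, a black line at each list's median and a dashed line at the minimum of 5. Class I chains reach 5673, and the genes under the minimum are 3 class I-like genes and 1 gene each of the immunoproteasome, regulator and class II lists.

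Of the 15 regulators of class I transcription 14 were detected. NLRC5, the class I transactivator, had a base mean of 15.8, the lowest of the 14. RFX5, RFXANK and RFXAP, which form the complex that binds HLA promoters, had 765, 56.6 and 34.8, and the NF-Y subunit genes NFYA, NFYB and NFYC had 27.3, 102 and 218. IRF1 and IRF2 had 92.6 and 276, and the NF-kB subunit genes NFKB1 and RELA had 359 and 121. IRF9, which binds the interferon response element together with STAT2, had 2.63, with a same-strand neighbour over 77.4% of its last 500 exonic bases, and STAT2 had 39.7. The 4 interferon receptor genes lay between 64.8 for IFNAR2 and 263 for IFNGR2. Of 11 class I-like genes 8 were detected, led by the stress ligands of natural killer cells MICB with 768, MICA with 210 and ULBP2 with 181.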

How the data were processed

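Per the labels and the study's methods, RNA of 3 vehicle and 3 levamisole cultures was sequenced after an adapted CEL-seq preparation. Reads were trimmed by the authors with Trim Galore 0.4.5, mapped them to GRCh38 with STAR 2.7.5a, counted them per gene with HTSeq 0.11.0 on Ensembl 95 and compared the groups with DESeq2 1.22.0, with a stated minimum of 5 reads per sample and gene, although 7409 genes of the table have a base mean under 5. The methods also describe a BWA MEM mapping with RPM values, which are not used here. The deposited base mean is a signal: the mean normalized count across whichever libraries entered the authors' fit, whose number is not stated and that could not be read from the lowest values (the lowest is 0.194, and at most 2 genes share a value to 6 decimals). The remaining columns hold the authors' own comparison (log2 fold change, its standard error, a statistic and p-values) and were not used. The table has no value per culture, so no test, error or depth per library can be given, and the planned edgeR test was not run.

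Ranks, ratios and levels per kilobase (union of GENCODE 44 exons, GRCh38; 20599 of 20745 identifiers matched) were computed with Python 3.11.15, pandas 2.3.3 and NumPy 2.4.6, and figures with matplotlib 3.10.9. Overlaps and shared stretches of 60 bases were taken over the last 500 exonic bases of each canonical transcript. They use GENCODE 44, so an overlapping neighbour may be missing from the Ensembl 95 annotation of the counts. Promoter windows (250 bases before to 50 after a start) came from the RefSeq table. The search functions were tested on simulated data. The genes named are all 9 members, and genes of the fixed lists where a sentence needs the value. Members and lists were chosen with earlier results of these data known. Some genes of the lists are not reported here. Alternatives were other scales, minimums, reference genes and a single strand for motifs.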

Additional observations from a re-analysis of the deposited data

How the results depend on the processing

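No paired analysis was possible because the table holds no value per culture. For the same reason the planned edgeR test, other normalizations, the replicate block and leaving out cultures were not run, and the planned count of libraries from the lowest base means gave no value. The depth of each library is unknown, so no level has a counting error.

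The span from B2M to PSMB9 went from 150.4 to 161 per kilobase, and stayed at 150.4 as a share of all summed base means with and without mitochondrial genes, with rows of the same name summed and with the minimum of 5. The median member stood above 88.6% of all genes, above 82.3% of the genes that reached 5, 86.1% of those that reached 1, 83.9% of protein-coding genes and 89.0% per kilobase. Per kilobase, PSMB8 over PSMB5 went from 0.220 to 0.0978, PSMB9 over PSMB6 from 0.0614 to 0.0266 and PSMB10 over PSMB7 from 0.0116 to 0.0127. The median member over the constitutive proteasome went from 0.673 to 0.568 with the PSMB subunits alone and, in an alternative chosen after seeing the data, to 0.548 with the 11 subunits with uncovered ends. The 60 pathway genes detected became 64, 60 and 45 at minimums of 1, 10 and 50. On the transcribed strand alone, the interferon response core was in 3 member windows in place of 5 and the CCAAT box in 3 in place of 5, while the counts of the other motifs kept within 1.5 times.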

Other observations

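Genes of MHC class II presentation, which professional antigen-presenting cells use and interferon-γ can raise in other cells, had levels in this line that were not part of the account of class I. Of 13 listed genes 8 had a row and 7 had a base mean of at least 5. The invariant chain CD74 had a base mean of 414, between those of TAP1 and TAPBP, and HLA-DPA1 had 198, 2.09-fold lower in base mean and 2.66-fold lower per kilobase. HLA-DOA followed with 61.1, HLA-DPB1 with 57.7, HLA-DMA with 37.5, HLA-DOB with 21.05 and HLA-DMB with 11.8, and HLA-DQB1 had 1.82. CIITA, the class II transactivator, and the HLA-DR genes of the list are not analysed here. Beside these values, none of the 6 leukocyte markers with a row reached a base mean of 5, and the highest of them, ITGAM, had 3.40. Of these 6, CD68 (82.6% of its last 500 exonic bases under a same-strand neighbour) and CORO1A (20.4% of its stretches of 60 bases shared with another gene) have uncertain levels.

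Markers of other kidney and contractile cells were uneven. Of 7 mesangial or smooth muscle markers 3 reached 5, among them the smooth muscle actin gene ACTA2 with 1021 and the calponin gene CNN1 with 209, and of 8 tubule markers 2 did, the water channel gene AQP1 with 243 and the epithelial adhesion gene EPCAM with 76.3.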
